A study of Mus musculus with 6 samples.

Results

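GABA-A receptors are the ligand-gated chloride channels through which most fast inhibition in the cortex runs, and they are a known target of isoflurane, a volatile anesthetic that strengthens their response to GABA. The mRNAs of 7 subunits of this receptor were examined, out of 21006 genes with a level in each sample. They were the alpha subunits Gabra2, Gabra3, Gabra4 and Gabra5, the beta subunits Gabrb1 and Gabrb2, and the delta subunit Gabrd. They were found by matching the Ensembl identifiers of the rows to these mouse symbols, and all 7 had a row and passed the filter on low values (a mean FPKM of 0.1 or more). The samples were prefrontal cortexes of wild type male C57BL/6 mice, 3 in each group, aged 18 months by the age label (the sample titles carry a smaller number with no stated meaning). The PND mice, named for the postoperative neurocognitive disorder that they model, breathed 1.5% isoflurane for 30 min and then had an exploratory laparotomy of 30 min under isoflurane, with lidocaine cream and povidone iodine on the wound in the following days. Mice of the CON group had no anesthesia and no operation at that time. All mice of the study, CON included, were deeply anesthetized with isoflurane before the brain was perfused and removed, shortly after a Barnes maze test on a later postoperative day. The PND group therefore combined anesthesia, surgery and wound care, whose parts cannot be told apart, and both groups had isoflurane at the end.

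Each receptor is a pentamer that is built, in most cases, from alpha, beta and gamma subunits. The alpha subunit sets where the receptor sits and how it answers benzodiazepines. Receptors with Gabra2 and Gabra3 are mostly synaptic. Receptors with Gabra5 lie largely outside synapses, carry tonic inhibition and are known for their role in memory and in the amnesic action of anesthetics. Gabra4 pairs with Gabrd in receptors outside synapses that respond to low GABA and to neurosteroids. The beta subunits are needed for assembly and carry part of the sites for general anesthetics.

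Of these genes, Gabra5 was the one that differed most between the groups. Its mean level was 1.95-fold that of CON in PND, with all 3 PND samples above all 3 CON samples, while its p adjusted over all genes was 0.9999. In the 3 CON samples the Gabra2 level was above that of Gabra5, and in the 3 PND samples it was below. In CON replicate 2 the levels of Gabra2 and Gabra5 were near each other (7.09 and 6.14 FPKM). The Gabra2 groups overlapped, with a log2 fold change of -0.24 (SE 0.24). The order of these 2 genes was examined after the levels had been seen and was not tested. The sequences before the starts of these 2 genes are shown because their order of levels differed between the groups. They are the 250 bases before the RefSeq start (GRCm38.p6), both on the minus strand and printed 5′ to 3′ along the gene, and capitals mark each CG dinucleotide. The window of Gabra5 is chr7:57510060-57510309 and that of Gabra2 is chr5:71095850-71096099.
Gabra5: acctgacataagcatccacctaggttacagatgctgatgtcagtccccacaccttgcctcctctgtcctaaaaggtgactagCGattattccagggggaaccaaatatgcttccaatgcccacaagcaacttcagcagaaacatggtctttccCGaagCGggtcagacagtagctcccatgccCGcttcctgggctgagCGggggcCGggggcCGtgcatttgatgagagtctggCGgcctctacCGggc
Gabra2: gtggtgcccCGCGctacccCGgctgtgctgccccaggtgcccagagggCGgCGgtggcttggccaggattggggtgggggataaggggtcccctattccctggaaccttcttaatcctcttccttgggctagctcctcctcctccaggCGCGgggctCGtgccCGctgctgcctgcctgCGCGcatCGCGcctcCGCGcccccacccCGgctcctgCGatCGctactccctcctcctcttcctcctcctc
The Gabra5 window held 9 CG dinucleotides at a GC content of 56.4%, and the Gabra2 window held 18 at 70.0%. The median over all 32851 windows of this length was 6. Of the motifs searched on both strands, CCAAT was found in both windows and is in 33.9% of all windows. GGGCGG (32.7% of all windows) was found in the Gabra2 window and not in that of Gabra5. TATAAA (12.4%) and TGACG (17.8%) were in neither. Such matches describe the letters and not the binding of a factor.

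The sequencing depth was not given, and a rough estimate from the spacing of small values put it at about 7200000 to 9400000 fragments per sample. All fragment numbers and counting errors given here rest on that estimate. All 15 pairs of samples were compared and 0 were identical. Nothing in the labels gave a sequencing batch. The samples differed in their dependence on GC content: in the tenth of genes with the highest GC content (at least 56.6%), the median deviation from the gene mean ranged from -0.56 in CON replicate 1 to 0.49 in CON replicate 2 on the log2 scale. All 5 excitatory, 7 inhibitory and 4 general neuronal markers were above 0 in every sample. The summed levels of the neuronal, astrocyte, oligodendrocyte and microglia lists overlapped between the groups. The choroid plexus sum was at most 3.31 FPKM, and 2 of 5 choroid plexus markers and all 4 red cell markers were listed at 0 in at least 1 sample, and the red cell sum reached 2.76 FPKM in PND replicate 1 against at most 0.191 FPKM in the other samples.

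The levels were compared first (FPKM, a fragment number corrected for exon length and depth, which allows a comparison between genes). Gabrb2 had the highest level, with a mean of 51.8 FPKM over the 6 samples. It was followed by Gabra3 with 43.4 FPKM, Gabrb1 with 43.2 FPKM, Gabra4 with 25.0 FPKM, Gabra2 with 10.1 FPKM, Gabra5 with 9.46 FPKM and Gabrd with 1.91 FPKM. Gabrb2 was above Gabra3 in 6 of 6 samples, although their ranges overlapped. Gabra3 and Gabrb1 did not differ beyond their spread, since each was the higher of the pair in 3 samples. The same held for Gabra2 and Gabra5 over all samples, and there the 3 samples with the higher Gabra2 were the CON samples. Between Gabrb1 and Gabra4, Gabra4 and Gabra2, and Gabra5 and Gabrd the ranges did not overlap. Summed, the 7 subunits had 174 to 193 FPKM in PND and 178 to 193 FPKM in CON. They made up 50.9% to 54.3% of the sum over the 15 GABA-A subunit genes with a row.

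**Figure D1:**
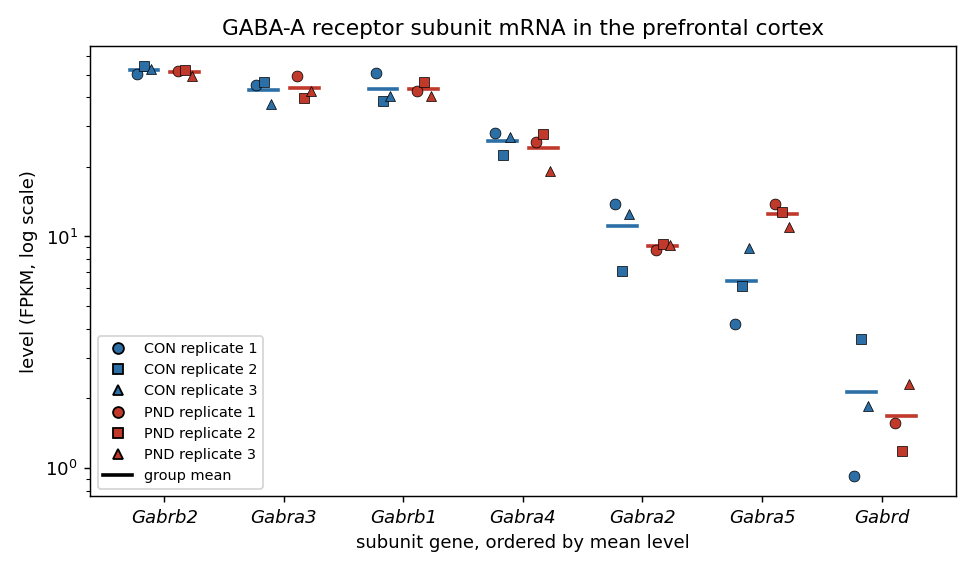
Level of each of the 7 subunits (y axis, FPKM on a log scale) in each sample, with genes ordered by mean level on the x axis. Points are samples, shapes are replicate numbers and bars are group means; for Gabra5 the 3 PND samples (11.0 to 13.8 FPKM) lie above the 3 CON samples (4.20 to 8.92 FPKM), and the groups of the other genes overlap.

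Among the alpha subunits, Gabra5 (ENSMUSG00000055078, chromosome 7, 57407672 to 57510059 on the minus strand of GRCm38, protein-coding) was measured at 13.8, 12.7 and 11.0 FPKM in PND replicates 1 to 3. In CON replicates 1 to 3 it was at 4.20, 6.14 and 8.92 FPKM. The groups did not overlap, and the CON samples were the more spread. The PND mean was 12.5 ± 1.43 FPKM, against 6.42 ± 2.37 FPKM for CON (SD, n = 3). On the log2(FPKM + 0.1) scale the fold change of PND over CON was 1.01 (SE 0.26), with a 95% interval from 0.39 to 1.62. Its unadjusted p by limma was 0.00574 and its adjusted p 0.9999, so the difference did not hold over all genes tested. The levels stood for an estimated 93 to 364 fragments per sample, which leaves a counting error of 10.3% in the lowest sample.

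Gabra5 was the 1 subunit of 7 that passed the cut-off used here, an absolute log2 fold change above 1 on the log2(FPKM + 0.1) scale with an unadjusted p below 0.05 by limma. Its ratio of mean FPKM, 1.95, was below the factor of 2 that this cut-off stands for, so the call rests on the log scale. Over all 18185 genes tested 1.33% passed it. Gabra5 was also the 1 of 7 with an unadjusted p below 0.05 (3.13% of all genes tested) and the 1 of 7 whose groups did not overlap (7.66% of all genes tested). Its fold change lay just above the cut-off and fell below it, with p still under 0.05, at 0.91 with a pseudocount of 1 and at 0.99 with median centring. Without CON replicate 1 the fold change was 0.74, and without CON replicate 3 it was 1.27. Its unadjusted p ranged from 0.000896 to 0.0238 when 1 sample was left out.

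Several measures were set beside Gabra5. Its longest transcript has a GC content of 47.1%, and CON replicate 1, the lowest in GC-rich genes, was also the lowest in Gabra5. CON replicate 2, the highest in GC-rich genes, was lower in Gabra5 than each PND sample. With the GC correction its log2 fold change was 1.01 with an unadjusted p of 0.00549. Its exons share 148 bases, 5.0% of their length, with Gm9962 on the opposite strand, and the use of strand in counting was not stated. Gm9962 had 1.69, 0.873 and 2.15 FPKM in PND and 1.31, 1.77 and 0.960 FPKM in CON, so its groups overlapped. The hippocampus is rich in Gabra5, and the sum of a list of 4 hippocampus markers was 12.5 to 24.7 FPKM in PND and 19.9 to 30.1 FPKM in CON. The spread of that sum came mostly from Zbtb20, which was at 2.10 FPKM in PND replicate 1 and 10.5 to 18.7 FPKM in the other samples. Wfs1 was at 5.80 to 7.81 FPKM in PND and 4.91 to 6.21 FPKM in CON, and Prox1 at 3.22 to 4.49 FPKM in PND and 4.35 to 5.12 FPKM in CON. The part of hippocampal tissue in the Gabra5 level was not tested. In bulk tissue fewer cells of a type and less RNA per cell cannot be told apart.

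Gabrg3, a gamma subunit, lies near Gabra5 on chromosome 7 and had a log2 fold change of -0.08 (SE 0.14). The ratio of Gabra5 to Gabrg3 was 0.947 to 1.21 in PND and 0.296 to 0.740 in CON. It was higher in each PND sample than in each CON sample. The Gabra5 groups were already separate and Gabrg3 varied little (10.6 to 14.2 FPKM), so this ratio largely restates the Gabra5 levels. It was not tested.

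Gabra2 (ENSMUSG00000000560, chromosome 5, 70957597 to 71095849) was at 8.71, 9.29 and 9.16 FPKM in PND replicates 1 to 3 and at 13.8, 7.09 and 12.5 FPKM in CON replicates 1 to 3. The PND samples lay close together and inside the CON range, since CON replicate 2 was the lowest of all and the other CON samples were the highest. The PND mean was 9.06 ± 0.306 FPKM and the CON mean 11.1 ± 3.56 FPKM (SD, n = 3). PND over CON gave a log2 fold change of -0.24 (SE 0.24), with a 95% interval from -0.81 to 0.33 and an adjusted p by limma of 0.9999. Without CON replicate 2 the fold change was -0.53 (limma, unadjusted p 0.00451, adjusted 0.823), without CON replicate 1 it was -0.05 (unadjusted p 0.825) and without CON replicate 3 it was -0.13 (unadjusted p 0.667). The striatum is rich in Gabra2, and the sum of a list of 6 striatum markers was 80.4 FPKM in CON replicate 2, 188 FPKM in CON replicate 3 and 117 to 141 FPKM in the other samples. The part of that list in the Gabra2 level was not tested.

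The ratio of Gabra2 to Gabra5 was 0.631, 0.732 and 0.835 in PND replicates 1 to 3. In CON replicates 1 to 3 it was 3.29, 1.15 and 1.40. The ratio was below 1 in each PND sample and above 1 in each CON sample. It was examined after the levels had been seen and was not tested.

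Gabra3 (ENSMUSG00000031343, chromosome X, 72432681 to 72656848) was at 49.4, 39.7 and 42.4 FPKM in PND and at 45.3, 46.4 and 37.2 FPKM in CON. The groups overlapped, and the highest and the lowest sample came from different groups. Its log2 fold change was 0.03 (SE 0.13), with a 95% interval from -0.28 to 0.34. Gabra4 (ENSMUSG00000029211, chromosome 5, 71569749 to 71658308) was at 25.5, 27.7 and 19.3 FPKM in PND and at 28.0, 22.5 and 26.8 FPKM in CON. Here PND replicate 3 stood below all others. Its log2 fold change was -0.10 (SE 0.16), with a 95% interval from -0.49 to 0.28. The adjusted p of both genes was 0.9999 by limma.

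Of the beta subunits, Gabrb2 (ENSMUSG00000007653, chromosome 11, 42419757 to 42629028) was at 51.9, 52.3 and 49.2 FPKM in PND and at 50.3, 54.2 and 53.0 FPKM in CON. Its coefficient of variation over the 6 samples was 3.49%, against 10.4% for Gabra3 and 50.5% for Gabrd. The group means were 51.2 ± 1.70 and 52.5 ± 1.98 FPKM (SD, n = 3). PND over CON gave a log2 fold change of -0.04 (SE 0.09), and the 95% interval ran from -0.25 to 0.17, which is 0.842-fold to 1.13-fold. Its sign turned without the mitochondrial genes (0.02). For this subunit a change by the factor of 2 that the cut-off asks for was thus outside the interval.

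Gabrb1 (ENSMUSG00000029212, chromosome 5, 71658113 to 72149037 on the plus strand) was at 42.5, 46.3 and 40.4 FPKM in PND and at 50.7, 38.5 and 40.4 FPKM in CON. CON samples were both the highest and the lowest. Its log2 fold change was 0.0045 (SE 0.13), with a 95% interval from -0.30 to 0.31 and an adjusted p of 0.9999 by limma, and its sign turned with median centring (-0.0099). Gabrb1 and Gabra4 lie head to head, and their exons share 46 bases on opposite strands, 0.33% and 0.76% of their lengths.

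Gabrd (ENSMUSG00000029054, chromosome 4, 155384980 to 155398112), whose subunit takes the place of gamma in receptors outside synapses, was the lowest and the most variable. It was at 1.57, 1.18 and 2.30 FPKM in PND and at 0.927, 3.61 and 1.86 FPKM in CON. The PND samples all lay inside the CON range, which spanned 0.927 to 3.61 FPKM. The levels stood for an estimated 20 to 84 fragments per sample, with a counting error of 22.4% in the lowest. Its log2 fold change was -0.18 (SE 0.47), and the 95% interval from -1.29 to 0.93 did not exclude a change by a factor of 2 toward lower levels. The adjusted p by limma was 0.9999.

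**Figure D2:**
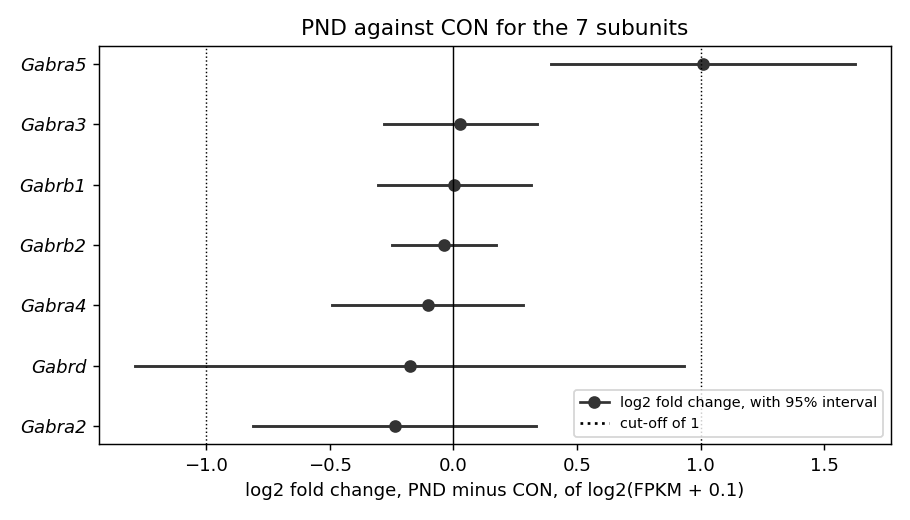
Log2 fold change of PND over CON on the log2(FPKM + 0.1) scale (x axis) for the 7 subunits, with 95% intervals from limma and dotted lines at the cut-off of 1. Gabra5 sits at 1.01, while the intervals of the other genes include 0.

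The spread of Gabrd followed the GC dependence of the samples. Its transcript has a GC content of 54.7%, the highest of the 7, and its deviations from the gene mean were lowest in CON replicate 1 (-0.84) and PND replicate 2 (-0.52) and highest in PND replicate 3 (0.39) and CON replicate 2 (1.01). The tenth of genes with the highest GC content had the same samples at its ends, in the same order, with -0.56, -0.30, 0.37 and 0.49. Gabra2 and Gabrb1, with a GC content of 38.4% and 40.9%, were highest in CON replicate 1 (0.49 and 0.24) and lowest in CON replicate 2 (-0.47 and -0.16). After the GC correction the log2 fold change was -0.24 for Gabrd and -0.18 for Gabra2, with unadjusted p-values of 0.470 and 0.355 by limma. The part of GC content in the level of a single gene was not tested.

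**Figure D3:**
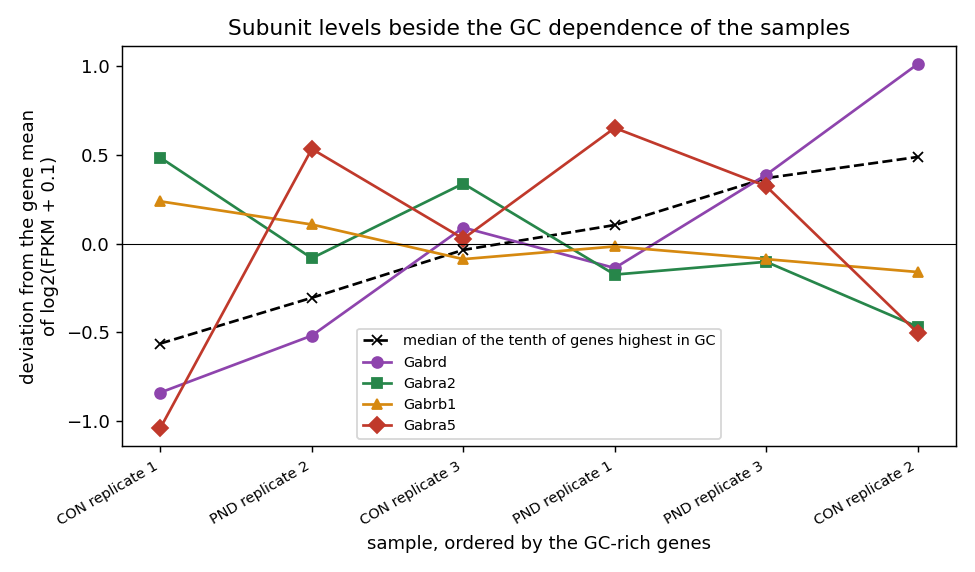
Deviation of 4 subunits from their gene means (y axis, log2 scale) in the 6 samples, which are ordered on the x axis by the median deviation of the tenth of genes with the highest GC content (dashed line). Gabrd runs from -0.84 in CON replicate 1 to 1.01 in CON replicate 2 with the dashed line, Gabra2 and Gabrb1 run the other way at these ends, and Gabra5 is low at both.

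The make-up of the 7 subunits was then compared as the share of each in their summed FPKM. The share of Gabra5 was 7.14%, 6.71% and 6.31% in PND replicates 1 to 3 and 2.17%, 3.44% and 4.93% in CON replicates 1 to 3. Each PND share was above each CON share. The means were 6.72% ± 0.412 in PND and 3.52% ± 1.38 in CON (SD, n = 3), a difference of 3.21 percentage points with a two-sided exact permutation p of 0.1, the smallest that 3 against 3 samples can give. For the other 6 subunits the exact permutation p ranged from 0.4 to 0.9. Their mean shares were 27.6% and 28.6% for Gabrb2, 23.6% and 23.3% for Gabra3, 23.2% and 23.4% for Gabrb1, 13.0% and 14.0% for Gabra4, 4.90% and 6.01% for Gabra2, and 0.921% and 1.18% for Gabrd in PND and CON. Shares sum to 100 in a sample and are not independent of each other.

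**Figure D4:**
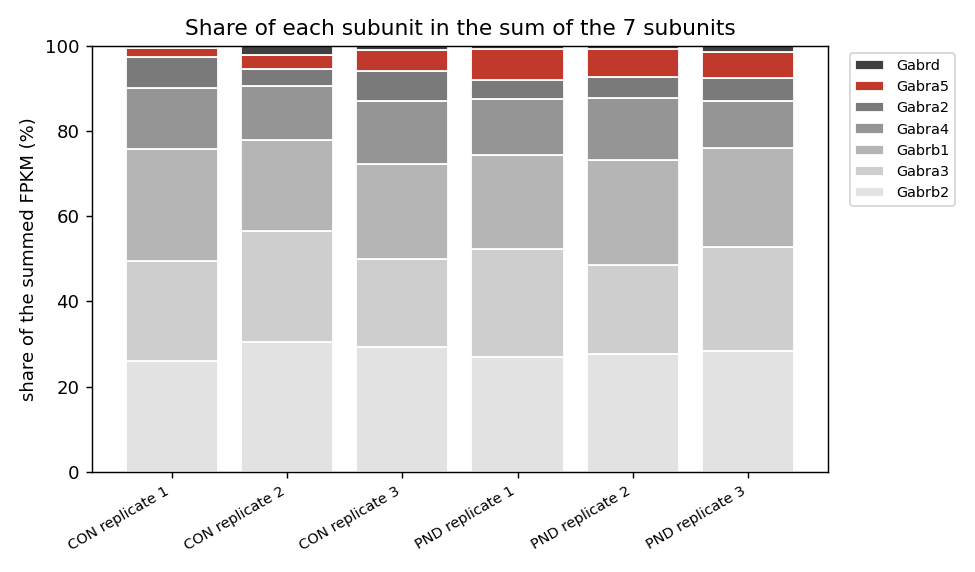
Share of each of the 7 subunits in their summed FPKM (y axis, %) in each sample (x axis), with Gabra5 in red and the other genes in grey. The red band spans 6.31% to 7.14% in the 3 PND samples and 2.17% to 4.93% in the 3 CON samples.

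Of a list of 12 other GABA-A subunit genes, 8 had a row and 7 passed the filter. Of these, 1 passed the cut-off (against 1.33% of all genes), and the median log2 fold change was -0.06, against -0.04 for the 7 subunits above and 0.01 for all genes tested. The gene was Gabrr2, a rho subunit best known from the retina. It was at 0.948, 0.627 and 0.244 FPKM in PND and at 0.102, 0 and 0.265 FPKM in CON, and the groups overlapped. Its sum over the group was an estimated 33 fragments in PND and 6 in CON, and PND over CON gave 1.72 (SE 0.62) on the log2 scale (limma, unadjusted p 0.0258, adjusted 0.9999). Gabrq, the theta subunit, was at 0.788 to 1.09 FPKM in PND and 0.413 to 0.877 FPKM in CON (limma, unadjusted p 0.0961).

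Genes that anchor, assemble and move the receptor were given by a list of 23, and all were tested. None (0) passed the cut-off or had an unadjusted p below 0.05, against 1.33% and 3.13% of all genes, and the adjusted p by limma was 0.9999 for each. The median of their log2 fold changes was 0.07, and 18 of the 23 were above 0, as were 9529 of all 18185 genes tested. The smallest p belonged to Hap1, a protein of receptor recycling, at 8.61, 9.08 and 10.8 FPKM in PND and 7.62, 6.75 and 9.17 FPKM in CON. It was followed by Gabarapl1, a relative of the receptor-binding protein GABARAP, at 80.4 to 99.7 FPKM in PND and 75.7 to 83.7 FPKM in CON. The groups of both genes overlapped.

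The last list held 11 genes of GABA synthesis, transport and breakdown and of chloride balance, all tested. None (0) passed the cut-off or had an unadjusted p below 0.05, against 1.33% and 3.13% of all genes, and the adjusted p by limma was 0.9999 for each. The median log2 fold change was 0.13 with a range from -0.23 to 0.31, against a median of 0.01 over all genes tested. Wnk1, a kinase that regulates chloride transporters, was at 13.7, 14.3 and 15.9 FPKM in PND and 17.3, 16.2 and 18.1 FPKM in CON. Abat, which breaks down GABA, was at 22.9 to 27.3 FPKM in PND and 19.8 to 23.9 FPKM in CON. Slc12a2, which carries chloride into cells, was at 18.3 to 23.6 FPKM in PND and 22.7 to 25.6 FPKM in CON. The PND samples were all below the CON samples for 2 of the 11 genes, Wnk1 and Stk39, a kinase that acts after Wnk1, against 7.66% of all genes with separate groups in either direction. Stk39 was named after its values were seen.

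Genes with a pattern most like that of each subunit were sought by Pearson correlation of log2(FPKM + 0.1) over the 6 samples, among the 12323 genes whose mean reached 1 FPKM. With 6 samples and so many genes, high values are found for any profile, and they are given as a description. For Gabra5 the most alike was Nop2 (r = 0.995), at 7.88, 7.82 and 6.90 FPKM in PND and 4.65, 5.49 and 6.63 FPKM in CON. For Gabrd it was Gm10275 (r = 0.999). For Gabra2 it was Tbc1d32 (r = 0.992), for Gabra3 Lamtor3 (r = 0.998), for Gabra4 Gjc3 (r = 0.997), for Gabrb1 6720427I07Rik (r = 0.995) and for Gabrb2 Slc24a2 (r = 0.976). The mean of the centred values of the 7 subunits was most like Mfsd5, Nepro, Kat8, Gm42853 and Ahnak (r = 0.969 to 0.971). The points of all these correlations share the libraries and their GC dependence.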

How the data were processed

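Total RNA of 6 prefrontal cortexes (3 PND, 3 CON, 1 animal each) was sequenced after removal of ribosomal RNA. The authors filtered the reads with Seqtk, aligned them with HISAT2, counted fragments per gene with StringTie and deposited FPKM values per gene, scaled by the trimmed mean of M values. The submitters' processing notes also list Bowtie 0.12.2 and the builds mm8 and mm9 without a role. The build, annotation and use of strand for these values are not given in the sources used here.

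Groups and replicate numbers came from the labels. Of 21006 rows, 20866 had a symbol and 20877 were found in GENCODE M21 (GRCm38), which gave positions, exon lengths and the GC content of the longest transcript. The 18185 genes whose mean reached 0.1 FPKM were tested two-sided with limma 3.58.1 in R 4.3.3 on log2(FPKM + 0.1), with an intensity trend and no covariate, and p-values were adjusted over all of them (Benjamini-Hochberg). The cut-off was an absolute log2 fold change above 1 on this scale and an unadjusted p below 0.05. The study applied the same thresholds to fold changes of FPKM. For mRNAs it named both edgeR and limma and did not state which of them gave p. The calls here are therefore not those of the study. For each sample the depth was taken that put most small values within 0.05 of a whole fragment. At that depth 41.6% to 44.8% of them were, against 10% for values spread evenly, and most were not, so fragment numbers are approximate, no count test was run on them as the main test, and counting errors cover counting only. Shares were compared with an exact permutation test in Python 3.11.15. Correlations of deviations between PND and CON samples with the same replicate number were -0.05, -0.45 and 0.03. For unlike numbers they ran from -0.42 to 0.43. These deviations include the GC dependence of the samples, so they cannot show whether the numbers pair the samples. The main test used no pairing. Promoter windows (RefSeq, GRCm38.p6) were found for 6 of the 7 subunits.

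The 7 subunits and the gene and marker lists were chosen with earlier results of these data known. The 7 subunits were named whatever their values, and of each other list the 3 genes with the smallest unadjusted p. Some genes that this rule names are not reported here. Alternatives covered the pseudocount, filter, scaling, trend, replicate block, GC correction, voom and each sample left out.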

Additional observations from a re-analysis of the deposited data

How the results depend on the processing

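The number of genes past the cut-off was 241 (153 higher in PND) and 235 to 388 when 1 sample was left out. It was 388 (286 higher) without CON replicate 2 and 235 (107 higher) without PND replicate 3. Most calls were thus higher in PND with all samples and lower in PND without PND replicate 3. The called genes can differ between these settings, and whether single genes changed direction was not examined. The number past the cut-off was 25 with a pseudocount of 1 and 59 with a mean of at least 1 FPKM. With quantile normalization 124 of 240 were higher. Of the 7 subunits, 0 passed the cut-off with a pseudocount of 1 or with median centring, and 0 to 1 when 1 sample was left out (0 without PND replicate 1, PND replicate 2 or CON replicate 1). The Gabra5 log2 fold change was 0.907 with a pseudocount of 1, 0.994 with median centring and 0.741 to 1.27 with 1 sample left out. Over 12 other alternatives its unadjusted p by limma was 0.00362 to 0.0156, and its adjusted p over all alternatives 0.777 to 1. The sign of Gabrb1 turned with median centring (-0.0099) and that of Gabrb2 without the mitochondrial genes (0.0187). With 1 sample left out, the range was -0.532 to -0.0548 for Gabra2, -0.0740 to 0.125 for Gabrb1, -0.0716 to 0.0960 for Gabra3, -0.212 to 0.050 for Gabra4 and -0.641 to 0.285 for Gabrd. With the replicate block 226 genes passed, Gabra5 was at 1.01 with an unadjusted p by limma of 0.0156, and no call among the 7 subunits changed. The cause of these changes was not tested. The difference in the Gabra5 share was 2.53 to 3.91 percentage points with 1 sample left out, while the differences of Gabra3, Gabrb1 and Gabrd turned sign in some of these. The Gabra5 share over all 15 subunit genes moved to a difference of 1.72 percentage points, which the larger denominator sets by construction, since the 7 subunits are 50.9% to 54.3% of that sum. The 3 samples per group and, for Gabrd, 20 to 84 estimated fragments per sample limit the precision.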
